A study of Mus musculus with 4 samples.

Results

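The motor neuron-only boundaries are 632 autosomal bins of 8 kb at which contacts between the 2 flanks were depleted in mouse motor neurons (MNs) but not, or less, in the embryonic stem cells (ESCs) from which they were derived. They were chosen by a score of insulation measured in the deposited Micro-C contact lists. For each bin, all contacts between the 31 bins before it and the 31 bins after it were summed (crossing contacts), and the insulation score was log2 of this sum over the mean of its chromosome, so that a score of 0 is the chromosome mean and a low score means few contacts across the bin. A boundary was a bin with the lowest score within 15 bins on each side, a score under -0.5 and at least 500 crossing contacts throughout. MN boundaries with no ESC boundary within 5 bins (40 kb) and with a score at least 0.3 higher in ESCs were kept. They were 632 of 2699 MN boundaries, among 290422 bins with enough contacts in both cell states; 2612 boundaries were found in ESCs and 1762 MN boundaries were shared with ESCs.

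Micro-C, which maps contacts between DNA fragments cut with micrococcal nuclease, had been performed in 4 groups with 1 library each: wild-type (WT) and PATZ1 knockout (KO) ESCs of the E14 line, kept with LIF and 2 kinase inhibitors, and WT and PATZ1 KO MNs. The KO lines had been made with a CRISPR guide against Patz1, which codes for a zinc finger protein, and were grown from single clones; the clone used is not given in the sources used here. MNs, of cervical type by the methods, were obtained from embryoid bodies given 1 µM retinoic acid and 0.5 µM smoothened agonist on day 2, and an independent pool of cells served each library. The autosomes of the WT ESC, PATZ1 KO ESC, WT MN and PATZ1 KO MN libraries held 166052904, 154422469, 108195604 and 113628498 contacts, so that MN values rest on fewer contacts. With 1 library per group no difference below has a replicate check, and no test between groups was made. Intervals of differences cover counting error at most, with crossing contacts taken as plain counts, and those of shares treat bins as independent. Each list omits pairs without a contact in both of its libraries, and the intervals of differences make no allowance for that. Neither kind of interval covers the spread between libraries. The lists hold contacts and no RNA, so the cell identities could not be set against marker genes here, and since contacts are summed over cells, a strong boundary in some cells and a weak one in all cannot be told apart.

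In mammalian chromosomes, boundaries lie between neighbouring domains of frequent contact. Many form where the ring-shaped cohesin complex, which extrudes DNA loops, is stopped by CTCF, a zinc finger protein bound in one orientation to its motif, and others lie at active gene starts. As cells differentiate, most boundaries are kept while some appear or weaken, often near genes of the new lineage. PATZ1 binds G-rich DNA.

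Among the 8 motor neuron-only boundaries with the largest difference between ESCs and MNs, 5 held a match to the core of the CTCF motif, taken as the letters CC, 3 bases of any kind, AG, 2 of any kind and GGC, on either strand. These matches are shown because the motif and its strand are what a boundary of the CTCF type would carry. Each line gives the match nearest to the centre of the bin, in capitals, with 24 flanking bases on each side, read 5′ to 3′ on the strand of the match from the mouse assembly GRCm38.
Boundary near Zscan25, chr5:145302067-145302126, minus strand: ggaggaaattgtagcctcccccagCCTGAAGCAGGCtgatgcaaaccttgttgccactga
Boundary near Nr2f1, chr13:78201716-78201775, minus strand: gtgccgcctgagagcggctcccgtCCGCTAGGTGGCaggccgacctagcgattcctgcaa
Boundary near Olfr411, chr11:74347166-74347225, plus strand: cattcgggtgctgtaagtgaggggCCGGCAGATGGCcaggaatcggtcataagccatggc
Boundary distal to Sox9, chr11:113172577-113172636, plus strand: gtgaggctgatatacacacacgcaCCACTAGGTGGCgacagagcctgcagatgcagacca
Boundary near Pcdh7, chr5:57683663-57683722, minus strand: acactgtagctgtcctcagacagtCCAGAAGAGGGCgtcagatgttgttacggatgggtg
The Sox9-distal bin held 3 matches and the other 4 bins held 1 each. Over all bins such a match was common, at 53.0% (153942 of 290422), so a single match singles out no bin. The Nr2f1 and Sox9-distal matches also fit a narrower form with G as the first base after AG, which 16.5% of all bins hold.

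How the boundaries looked in each library was examined first. At the 632 bins the median score in ESCs was -0.29 (WT) and -0.27 (PATZ1 KO), and in MNs -0.85 (WT) and -0.80 (PATZ1 KO). The MN values ranged from -2.54 to -0.39 in WT and from -2.83 to -0.33 in PATZ1 KO, and the ESC values from -1.91 to 0.55 and from -1.84 to 0.50. The members were selected on the sum of these libraries, so the values are given as a description. A summed difference of at least 0.3, which all 632 had by the rule, was met by 20.7% of all bins. In contacts, a member was crossed by a mean of 12.5 contacts per 1000000 autosomal contacts in the ESC library of either genotype, and 7.39 (WT) and 7.27 (PATZ1 KO) in MNs. Contacts within the flanks went from 74.0 and 71.9 per 1000000 in the ESC libraries to 64.7 and 66.9 in the MN libraries. In proportion this was a smaller decrease than that of the crossing contacts. At shared boundaries crossing contacts went from 7.94 (WT) and 7.71 (PATZ1 KO) in ESCs to 6.68 and 5.93 in MNs. Contacts within the flanks there went from 69.4 and 68.0 to 71.7 and 64.2. Crossing contacts made up a median of 14.4%, 14.6%, 10.3% and 9.77% of all contacts in the window, in the same order of libraries, against 10.3%, 10.1%, 8.51% and 8.43% at shared boundaries. Motor neuron-only boundaries were thus crossed in MNs by a share of contacts close to that at shared boundaries in ESCs.

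**Figure D1:**
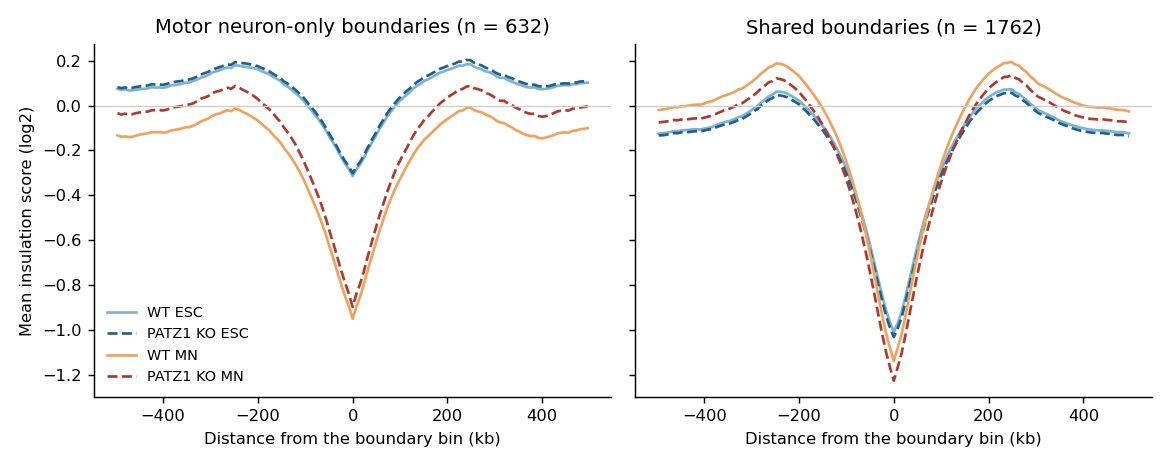
Mean insulation score (log2, y axis) against distance from the boundary bin (kb, x axis) at 632 motor neuron-only and 1762 shared boundaries, 1 line per library (WT solid, PATZ1 KO dashed). At the bin the mean of the motor neuron-only boundaries was -0.31 and -0.30 in the WT and PATZ1 KO ESC libraries and -0.95 and -0.90 in the MN libraries, while all 4 lines reached -1.01 or lower at shared boundaries.

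The name of the group was set against the ESC values. Of the 632 members, 385 (60.9%, 95% exact binomial interval 57% to 64.7%) lay within 5 bins of a local minimum of the ESC score of any depth, against 20.3% of all bins. The summed ESC score was under -0.5 at 81 members (12.8%), against 17.9% of all bins, and above 0 at 66 (10.4%), against 50.7% of all bins. Most members were therefore sites of shallow insulation in ESCs that was deeper in MNs, and a minority had no ESC counterpart: 247 had no ESC local minimum within 5 bins. The boundaries are called motor neuron-only below in the sense of the rule. The depth of the dip, taken as the score minus the mean score of the bins 16 to 31 away on both sides, had a median of -0.46 (WT) and -0.45 (PATZ1 KO) in ESCs and of -0.83 (WT) and -0.88 (PATZ1 KO) in MNs. It was deeper in MNs by at least 0.3 at 387 members (61.2%), against 41.3% of shared boundaries, 36.4% of MN boundaries that had no ESC boundary within 5 bins and a difference under 0.3, and 11.8% of all bins. The dip is built from the score that the rule used, so these shares describe the members and test nothing. At the other 245 members the median difference of the score was 0.48, that of the dip 0.13 and that of the surroundings 0.37, and the surroundings differed by more than the dip at 218. The nearest ESC boundary was a median of 604 kb away, and the range ran from 48 to 4728 kb. The dip at shared boundaries was also deeper in MNs, with medians of -1.19 (WT) and -1.20 (PATZ1 KO) against -0.96 and -0.97 in ESCs. The MN lists hold fewer contacts, and each list omits pairs without a contact in both of its libraries. How this affects the depth of dips was not tested. With the ESC libraries thinned to the MN totals, 520 boundaries were found, 512 in the bin of a member.

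At the threshold, the 3 members just inside had a difference of 0.30 (near Lrp11 on chromosome 10, at Smco3 on chromosome 6 and near Olfr169 on chromosome 16), and the 3 MN boundaries just outside had 0.299, 0.297 and 0.297 (on chromosomes 13, 4 and 14).

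The boundary with the largest difference, 1.79, lay at chr5:145296001-145304000, 15.5 kb from the start of Zscan25, a gene of the zinc finger and SCAN domain family. Its score was -0.71 (WT) and -0.57 (PATZ1 KO) in ESCs and -2.38 (WT) and -2.48 (PATZ1 KO) in MNs, from 1429, 1484, 266 and 244 crossing contacts. Both MN libraries lay far below both ESC libraries, which already stood below the chromosome mean. Bases marked as repeats in the assembly made up 65.1% of this bin, against a median of 25.6% at members. Of the 8 with the largest difference, the bin near Gm438 held 77.6% and the others between 13.7% and 38.1%. The second, at chr13:83712001-83720000, lay 208 kb from the start of Mef2c, a transcription factor of muscle and neurons, and overlapped no protein-coding gene. Its scores were -0.31, -0.25, -1.90 and -1.94 in the WT ESC, PATZ1 KO ESC, WT MN and PATZ1 KO MN libraries. Here the difference between genotypes was under 0.1 in each cell state, against a difference of 1.63 between cell states.

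The boundary at chr13:78200001-78208000 began 0.2 kb from the start of Nr2f1, an orphan nuclear receptor of neural development, with scores of -0.07, -0.04, -1.67 and -1.55 in the same order. In ESCs the score there was close to the chromosome mean. The boundary at chr11:113168001-113176000 lay 385.8 kb from Sox9, a factor of neural progenitors and cartilage, in a stretch without protein-coding genes, with scores of -0.35, -0.21, -1.68 and -1.83. A second member, at chr11:112776001-112784000, held the start of Sox9 itself, with scores of 0.41, 0.50, -0.64 and -0.83; it was singled out after its values were seen. Both ends of the interval between Sox9 and the distal bin were thus motor neuron-only boundaries, and the ESC score at the gene was above the chromosome mean. The boundary 30 kb from Pcdh7, a protocadherin of cell adhesion, at chr5:57680001-57688000, scored -0.21, -0.26, -1.68 and -1.58. The remaining 3 of the 8 lay at Olfr411 on chromosome 11 (-0.26, -0.13, -1.65 and -1.77), 536.1 kb from Adam6a on chromosome 12 (-0.67, -0.63, -2.32 and -2.01) and 45.4 kb from Gm438 on chromosome 4 (-0.47, -0.26, -1.74 and -1.80). In all 8, each MN library was lower than each ESC library, as the rule on summed libraries favours.

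**Figure D2:**
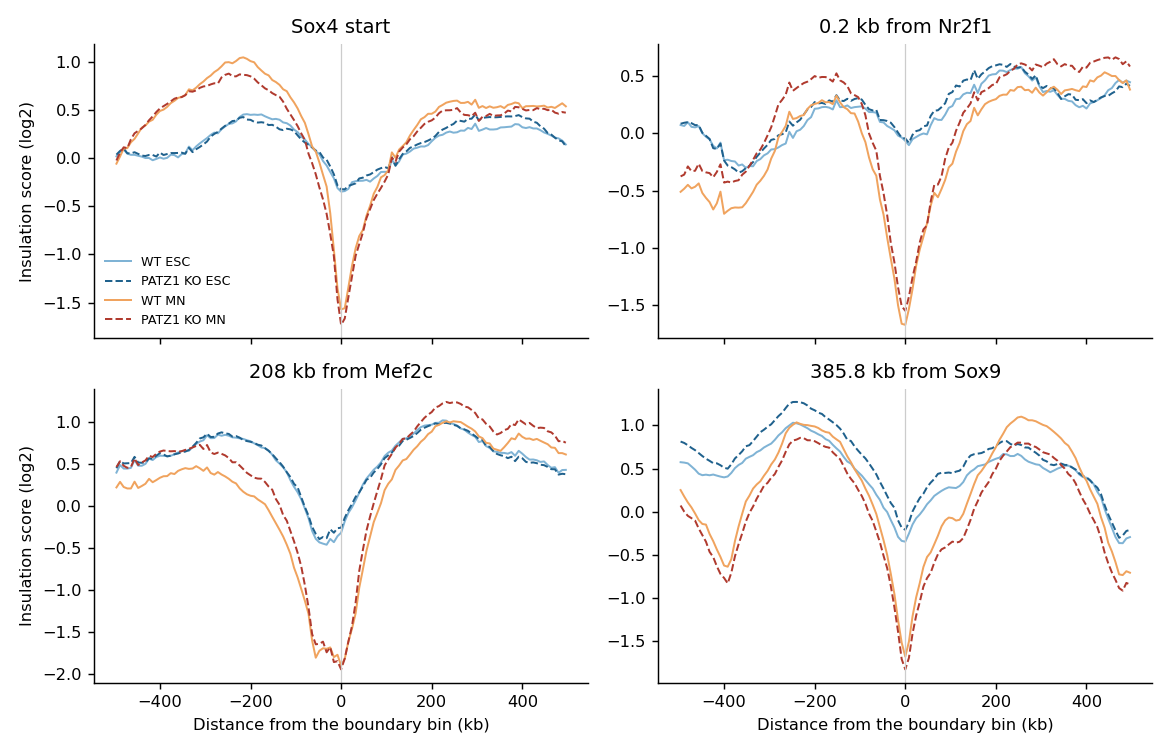
Insulation score (log2, y axis) within 496 kb of 4 motor neuron-only boundaries (distance in kb, x axis), 1 line per library (WT solid, PATZ1 KO dashed). Both MN lines dip to between -1.94 and -1.55 at the boundary bins, where the ESC lines lie between -0.35 and -0.04.

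Because both genotypes entered the choice, the boundaries were also chosen in one genotype and read in the other, with a minimum of 250 contacts. Chosen in WT alone, 832 boundaries were found. The PATZ1 KO libraries kept a difference of at least 0.3 at 519 of them (62.4%, 95% exact binomial interval 59.0% to 65.7%). This was met by 18.5% of all bins and 38.0% of shared boundaries. Their median difference in the PATZ1 KO libraries was 0.41, and it was above 0 at 785. Chosen in PATZ1 KO alone, 622 were found, and the WT libraries kept the difference at 492 (79.1%, 75.7% to 82.2%), with a median of 0.54. In WT it was met by 27.1% of all bins and 32.3% of shared boundaries. The exact bin was chosen in both genotypes at 210 sites. The cell state difference was therefore seen again at most sites in the other genotype, although the single bin and the threshold were met less often. This reading is not fully independent of the choice. The lists hold only pairs with a contact in both genotypes, so each genotype also decided which pairs of the other were counted. Over both directions together the share kept was 69.5%, and it ranged from 48.5% with a square of 15 bins to 85.5% with one of 62 bins. The shares of all bins with such a difference were not counted for these squares, so the range has no background.

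**Figure D3:**
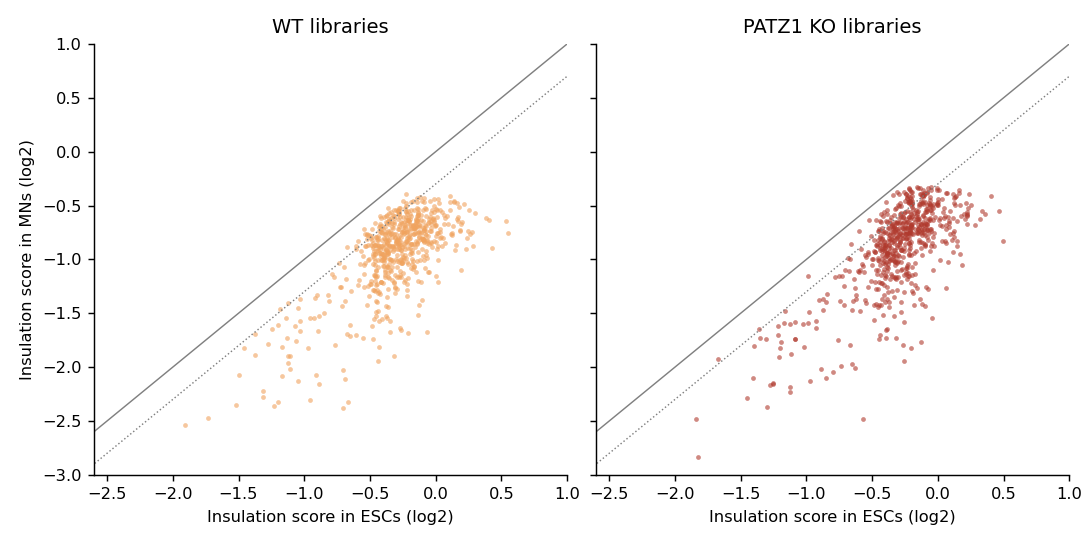
Insulation score in MNs (log2, y axis) against that in ESCs (log2, x axis) at the 632 motor neuron-only boundaries, in the WT libraries (left) and the PATZ1 KO libraries (right); each point is a boundary, the solid line marks equal scores and the dotted line a difference of 0.3. In the WT libraries 577 points and in the PATZ1 KO libraries 558 points differ by at least 0.3, and 503 do so in both.

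The genes at the boundaries were examined next. The start of a protein-coding gene lay in 82 of the 632 bins (13.0%, 95% exact binomial interval 10.5% to 15.8%). This was above the 6.19% of all bins and the 5.28% of all bins weighted to the GC content of the members, and below the 21.6% of shared and 25.8% of ESC-only boundaries. A protein-coding gene overlapped the bin at 280 members (44.3%), close to the 46.6% of all bins. With members put in 4 equal groups by GC content, the richest group held 41 of the 82 gene starts and the 2 poorest 12 and 9. The median difference between cell states was 0.60 at members with a gene start and 0.54 at the others, and the quartiles of the groups overlapped (0.49 to 0.79 and 0.43 to 0.73).

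The 12 gene-start members with the largest difference were listed after the values were seen, and they include Sox4 and Sox9. Flrt3, an adhesion molecule of axon guidance, lay at chr2:140664001-140672000 in a bin that Macrod2 also overlaps. Its scores were 0.54, 0.46, -0.64 and -0.55, so that a site more crossed than the chromosome mean in ESCs was a boundary in MNs. Efnb2, an ephrin ligand, lay at chr8:8656001-8664000 with -0.17, -0.17, -1.09 and -1.24. The others were Klra2, Gm35315, Zranb2, Vmn2r9, Serpinb3a, Olfr1155, Mon1b and Adss, and they span receptors, metabolic enzymes and genes of unstated role, so that no single function describes the 12.

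Gene lists for the 2 cell states were set against the members, a gene being counted when its start lay within 2 bins. Of 31 motor neuron and neural tube factors, 3 lay near a member (9.68%), and of 28 neuronal effectors 3 did (10.7%), against 298 of all 19905 protein-coding genes (1.5%). Near shared boundaries these lists had 4 and 1 genes. Of 24 genes of retinoic acid and hedgehog signalling and 13 of chromatin architecture none was near a member, and of 22 pluripotency genes 1 was. The lists are short and were made with earlier results of these data known, and the counts carry no test.

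The 3 factors were Sox4, Sox11 and Zeb2, while Isl1, Lhx3, Mnx1 and Olig2 of the same list had no start near a member. Sox4 and Sox11 belong to the SoxC group, which acts as neurons mature, and Zeb2 is a zinc finger repressor of neural development. The Sox4 bin, chr13:28952001-28960000, had scores of -0.35 (WT) and -0.32 (PATZ1 KO) in ESCs and of -1.57 (WT) and -1.73 (PATZ1 KO) in MNs, a summed difference of 1.31. It held 3 matches to the CTCF core. At Sox11, chr12:27344001-27352000, where the gene starts 1.4 kb from the bin, the scores were -0.38, -0.36, -1.15 and -1.18. At Zeb2, chr2:45112001-45120000, they were 0.18, 0.05, -0.51 and -0.62. The ESC scores of the 3 sites thus ran from below to above the chromosome mean, and none was under -0.5.

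The neuronal effectors were Nrp2, a receptor for semaphorins, Epha4, an ephrin receptor, and Slit2, a secreted guidance ligand. At Nrp2, chr1:62696001-62704000, the scores were -0.13, -0.13, -0.53 and -0.69 in the same order. At Epha4, chr1:77520001-77528000, they were -0.45, -0.39, -0.80 and -0.87, and at Slit2, chr5:47976001-47984000, 0.17, 0.12, -0.62 and -0.47. All 3 are axon guidance genes, but other guidance genes of the same list, such as Robo1, Slit1, Dcc and Nrp1, had no start near a member. The differences at the 3 (0.47, 0.41 and 0.69) were below the upper quartile of the members, 0.73. The pluripotency gene was Sox2, a factor of stem cells and neural progenitors, whose start lay 2.4 kb from the bin chr3:34640001-34648000, with scores of -0.42, -0.43, -0.96 and -1.15.

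**Figure D4:**
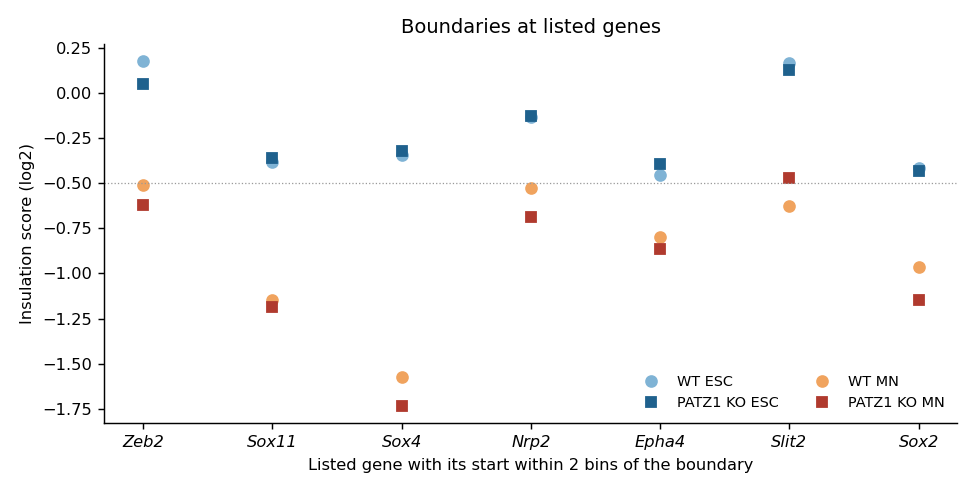
Insulation score (log2, y axis) in each of the 4 libraries at the boundaries within 2 bins of the start of a listed gene (x axis); circles are WT and squares PATZ1 KO, and the dotted line is the threshold of -0.5. At each gene the MN libraries lie below the ESC libraries, and the gap is widest at Sox4 (1.31).

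Among gene families, 38 of 1123 olfactory receptor genes (3.38%), 6 of 235 vomeronasal receptor genes (2.55%), 2 of 23 cadherins (Cdh10 and Cdh11), 3 of 352 Zfp genes (0.852%) and none of 38 Hox, 67 Pcdh or 62 histone genes had a start near a member, against 298 of all 19905 protein-coding genes (1.497%). Neighbouring receptor genes share members: the 44 receptor genes lay at 28 members. Near a shared boundary were the starts of 7.83% of all protein-coding genes. By family these were 26.3% of Hox, 24.2% of histone, 7.95% of Zfp, 4.35% of cadherin, 2.99% of Pcdh, 2.40% of olfactory receptor and 1.28% of vomeronasal receptor genes.

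Matches to the CTCF core were found in 353 members (55.9%, 51.9% to 59.8%), against 53.0% of all bins, 49.6% of all bins weighted to the GC content of the members, 71.5% of shared and 82.5% of ESC-only boundaries. The narrower letters gave 19.3%, 16.5%, 14.6%, 27.2% and 33.2% in the same order. With either set of letters the share at members was within 3 percentage points of that of all bins, above that of bins of like GC content and below that of shared boundaries. A G-rich run, GGGNGGGG on either strand, was in 532 members (84.2%) and in 83.6% of all bins. The median GC content was 40.4% at members, 41.4% over all bins and 43.8% at shared boundaries. CTCF matches followed GC content among members, from 51 of 158 bins in the group poorest in GC to 130 of 158 in the richest.

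Members made up between 14.6% of the MN boundaries on chromosome 10 and 37.1% on chromosome 7, and 23.4% over all autosomes. Of 628 members with a further MN boundary after them on the chromosome, 265 (42.2%) were followed by another member, at a median of 656 kb.

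The PATZ1 KO libraries were then compared with WT at the members. The 2 libraries of a list are told apart by a number and not by a sample name. Number 1 was taken as WT and number 2 as PATZ1 KO, after the comparison's own name, and the sign of each KO minus WT difference depends on that reading. In MNs the median difference, PATZ1 KO minus WT, was 0.038 at motor neuron-only boundaries, with quartiles of -0.10 and 0.20 and a range of -0.56 to 0.50. Over all bins it was -0.0019 and at shared boundaries -0.096. The score was lower in PATZ1 KO at 276 members (43.7%), against 50.3% of all bins and 44.2% of all bins weighted to the GC content of the members. At least 0.2 lower in PATZ1 KO were 51 members (8.07%), against 18.5% of all bins and 27.3% of shared boundaries, and at least 0.2 higher were 161 (25.5%), against 23.3% of all bins and 5.85% of shared boundaries. The GC-weighted shares were 14.9% lower and 28.5% higher. The members past 0.2 in the upward direction were thus near the share of all bins, and those in the downward direction below it. The counting interval of the difference lay above 0 at 207 members (32.8%), against 34.1% of all bins, and below it at 108 (17.1%), against 32.9% of all bins. In all bins weighted to the GC content of the members, these shares were 40.2% and 27.9%. The members had fewer crossing contacts than most bins, with a median of 805.5 (WT MNs) against 1437, and a lower count widens the interval.

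These differences moved with base composition. Across the 632 members, Spearman's rho of the MN difference with the GC content of the bin was -0.77, and with that of the 63 bins of the window -0.88; over all 290422 bins it was -0.81 and -0.93. These are correlations across sites that share the same 2 libraries, and they describe those libraries. From the group of members poorest in GC to the richest, the median MN difference was 0.26, 0.10, -0.04 and -0.15. The poorest group of 158 held 111 members at least 0.2 higher (70.3%), against 73.1% of bins of like GC content, and none at least 0.2 lower, against 0.179%. The richest group of 158 held 2 members at least 0.2 higher (1.27%), against 0.757% of bins of like GC content, and 41 at least 0.2 lower (25.9%), against 47.5%. After the median of the bins of like GC content was subtracted, the median over members was 0.0019, and 38 members (6.01%) were at least 0.2 higher, against 6.46% of all bins, and 36 (5.70%) at least 0.2 lower, against 5.57% of all bins. With GC content taken over the window, a setting added after the data were seen, the median was -0.023, with 8 higher (1.27%, against 1.36% of all bins) and 19 lower (3.01%, against 0.73% of all bins). At shared boundaries the shares with window GC content were 2.27% higher and 2.72% lower, close to the members for the lower side. With the scores of the same 632 bins set against the mean of 1000 kb on each side, also added after the data were seen, 9 members (1.42%) were higher, against 1.80% of all bins, and 33 (5.22%) lower, against 1.63%. By the dip described below, 6 were higher and 13 lower. The excess of higher over lower members seen with the score against the chromosome mean was nearly lost or turned under these settings.

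**Figure D5:**
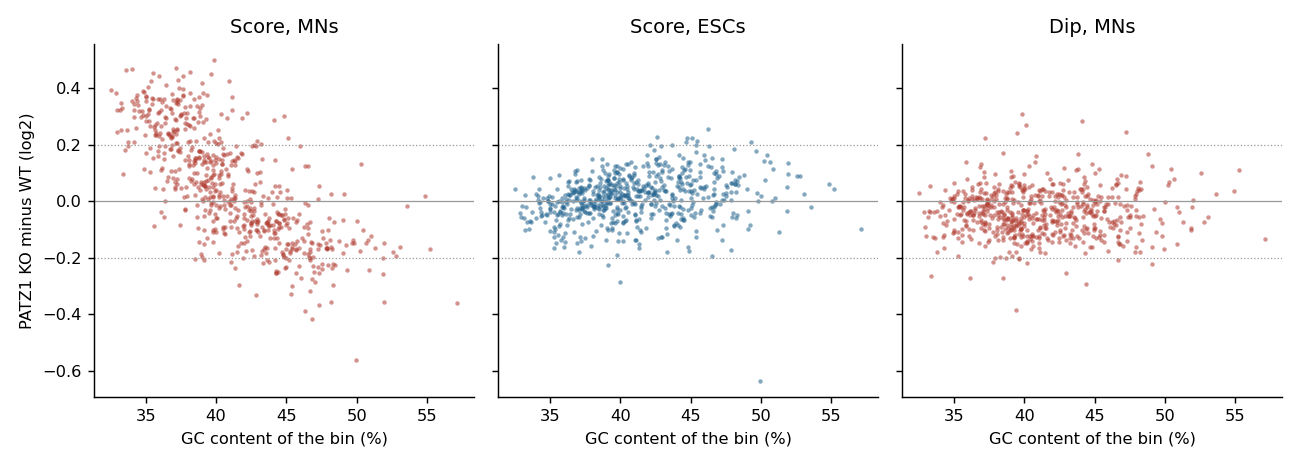
PATZ1 KO minus WT difference (log2, y axes) against the GC content of the bin (%, x axes) at 632 motor neuron-only boundaries, for the score in MNs, the score in ESCs and the depth of the dip in MNs; dotted lines mark 0.2 in either direction. The MN score difference goes from a median of 0.26 in the group poorest in GC to -0.15 in the richest, while the difference of the dip stays near its median of -0.043.

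The depth of the dip, which sets each bin against its own surroundings, followed GC content less (Spearman's rho -0.0016 across members and -0.17 over all bins). It was deeper in PATZ1 KO than in WT MNs at 441 members (69.8%), against 49.6% of all bins and 58.5% of shared boundaries. The median difference was small, -0.043, with quartiles of -0.097 and 0.012, and -0.020 at shared boundaries. At least 0.2 deeper were 13 members (2.06%), against 0.737% of all bins and 2.95% of shared boundaries, and at least 0.2 shallower were 6 (0.949%), against 0.602% of all bins and 1.19% of shared boundaries. By this measure most members were slightly deeper in the PATZ1 KO library. The measure was added after the data were seen, and 1 library per genotype gives no spread against which to set it.

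The members with the largest differences between the MN libraries, among those with at least 500 crossing contacts in each, had opposite base composition. The 4 lowest in PATZ1 KO were 34.4 kb from Gli2, a transcription factor of hedgehog signalling (-0.42, counting interval -0.56 to -0.27), at Rps6kc1 (-0.39), at Mcoln2 (-0.37) and at Ctif (-0.36), with GC contents between 46.4% and 51.9%. At the Gli2 bin, chr1:119088001-119096000, the score was -0.39 in the ESCs of either genotype, and in MNs it was -0.70 (WT) and -1.11 (PATZ1 KO). The ESC libraries were alike there and the MN libraries apart. The 4 highest were 86.8 kb from Vmn2r70 (0.50), 950.4 kb from Cdh7 (0.47), 855.2 kb from Cdh9 (0.47) and 2100 kb from Tenm3 (0.46), with GC contents between 33.6% and 39.9%. Cdh7, Cdh9 and Tenm3 code for cell adhesion proteins, and the bins lie in gene-poor stretches far from them. In the WT libraries alone, the difference between cell states at the 4 lowest was 0.31, 0.27, 0.25 and 0.37. In the PATZ1 KO libraries alone, that at the 4 highest was 0.33, 0.19, 0.15 and 0.064, mostly under the 0.3 of the rule. Near Tenm3, alone of these bins, the dip was deeper in ESCs (-0.66 in either genotype) than in MNs (-0.49 in WT and -0.53 in PATZ1 KO). With the median of bins of like GC content subtracted, the 4 lowest were at -0.20, -0.21, -0.15 and -0.06, and the 4 highest at 0.42, 0.22, 0.14 and 0.14. Only the bin near Vmn2r70, that near Cdh7, and those near Gli2 and at Rps6kc1 remained past 0.2. By the dip, the differences at the 4 lowest and 4 highest ran from -0.15 near Gli2 to 0.084 near Cdh7, so none was past 0.2.

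Of the 8 boundaries with the largest difference between cell states, the counting interval of the MN difference between genotypes included 0 at 7, against 50.2% of all members and 33.0% of all bins. These bins had between 244 and 485 crossing contacts in each MN library, few enough that the intervals are wide. The exception, 536.1 kb from Adam6a, differed by 0.31 (0.08 to 0.54) and had a GC content of 36.9%; with like bins subtracted it was 0.06, and the boundary near Nr2f1 was at 0.31. By the dip, the boundaries 208 kb from Mef2c and 30 kb from Pcdh7 were deeper in PATZ1 KO MNs by 0.29 and 0.27, among the 13 members past 0.2. In ESCs the interval of the score difference lay above 0 near Gm438 (0.21), Zscan25 (0.13) and Olfr411 (0.13) and at the Sox9-distal bin (0.14). At the others of the 8 it included 0. Over all members the ESC interval lay above 0 at 95 and below 0 at 62. The shares of all bins with such ESC intervals were not counted, so neither these counts nor those at the 8 are set against a background. At the listed genes the MN differences were -0.16 at Sox4, -0.035 at Sox11, -0.11 at Zeb2, -0.16 at Nrp2, -0.069 at Epha4, 0.15 at Slit2 and -0.18 at Sox2. None of the 7 reached 0.2 in either direction, which 33.5% of all members and 41.8% of all bins did. At 4 of them the interval included 0 (Sox4, Sox11, Zeb2 and Epha4), near the share over all members. By the dip, Zeb2 was deeper in PATZ1 KO by 0.25, and after the median of bins of like GC content was subtracted, Slit2 differed by 0.23. In ESCs the interval of the score difference excluded 0 at Zeb2 alone of the 7 (-0.13, -0.21 to -0.05).

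In ESCs, where these bins are not boundaries by the rule, the genotypes were closer. The median difference was 0.016, with quartiles of -0.037 and 0.063, and the score was lower in PATZ1 KO at 266 members (42.1%), against 53.4% of all bins. At least 0.2 lower were 3 members (0.475%), against 2.99% of all bins, and at least 0.2 higher were 7 (1.11%), against 1.55% of all bins. The dip was deeper in PATZ1 KO ESCs at 321 members (50.8%), close to the 49.1% of all bins. The ESC difference had a Spearman's rho of 0.28 with GC content across members, against -0.77 in MNs. The counting intervals excluded 0 in both cell states with opposite signs at 58 members (9.18%), against 12.9% of all bins, and with the same sign at 19 (3.01%), against 10.9% of all bins. Weighted to the GC content of the members, the shares of all bins were 13.6% and 10.02%.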

How the data were processed

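Micro-C contacts from 4 libraries, 1 in each of WT ESC, PATZ1 KO ESC, WT MN and PATZ1 KO MN, were grouped by the sample labels. Libraries had been made with a Dovetail kit, and alignment, contact matrices and the comparison of WT with PATZ1 KO by HiCcompare were run for the authors. The aligner and versions are not given in the sources used here. The deposited lists, 1 per cell state, hold pairs of 8 kb bins with at least 1 contact in both libraries. Their interaction frequencies are whole-number counts, deposited by the authors without scaling. The adjusted interaction frequencies are a signal deposited after the authors' joint normalization against distance, and served as an alternative. Columns with the authors' log2 ratios, scores and p-values were not used. The processing notes name build mm10, and the last listed bin lay within the GRCm38 chromosome for all 38 combinations of autosome and cell state.

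The chromosome mean of crossing contacts was taken over bins with any. Counts rest on 243 crossing contacts or more per member and library. The 95% intervals of differences, from the crossing contacts, cover counting error at most and make no allowance for the pairs missing from the lists. Those of shares are exact binomial over bins, treat the bins as independent and cover no spread between libraries. GC content, gene starts (GENCODE M21) and motifs were read from GRCm38, and bins were put in 20 classes of GC content. No test between groups was made, since each holds 1 library. Members, lists and thresholds were chosen with earlier results of these data known. The boundaries named were the 8 with the largest difference, the 4 lowest and 4 highest in PATZ1 KO MNs, those within 2 bins of a listed gene, and 3 on each side of the threshold; others are said to have been chosen after their values were seen. Alternatives changed the square, window, thresholds, contact minimum, scaling, depth and GC correction. The caller was also run on simulated contact maps with planted boundaries, and no result above rests on that run. Python 3.11.15, NumPy 2.4.6, pandas 2.3.3 and SciPy 1.17.1 were used.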

Additional observations from a re-analysis of the deposited data

Results flagged for a closer look

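At the motor neuron-only boundary in Ctif (chr18:75600001-75608000), the PATZ1 KO minus WT difference had opposite signs in the cell states, -0.36 in MNs and 0.096 in ESCs, with both counting intervals excluding 0. It was the only one of the boundaries named by rule with this pattern, which 58 of all 632 members (9.18%), 12.9% of all bins and 13.6% of all bins weighted to the GC content of the members showed. Among the gene-start members listed after their values were seen, Sox9 (-0.19 in MNs and 0.090 in ESCs), Zranb2 (-0.17 and 0.13) and Mon1b (-0.24 and 0.11) also showed it. The GC content of the bin was 51.9%, and with the median of bins of like GC content subtracted the MN difference was -0.06. With 1 library per group, the difference between cell states was not tested.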

How the results depend on the processing

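With the replicate number as a block, no paired analysis was possible because each group holds 1 library and 1 number; a fit pairing the cell states by genotype was not run. The number of motor neuron-only boundaries was 374 with a difference of at least 0.5, 387 where the ESC dip also had to be 0.3 shallower and 247 where no ESC local minimum could lie within 5 bins; under the other alternatives it stayed within 1.5 times of 632. Of the 632, 512 were found in the same bin with the ESC libraries thinned to the MN totals, 625 with adjusted frequencies and 245 with a mean of 1000 kb on each side (the local mean). With a square of 15 or 62 bins, 140 and 136 were found in the same bin, and 257 and 225 had one within 2 bins. The share kept in the other genotype was 76.6% and 58.8% with differences of 0.2 and 0.5, and 48.5% and 85.5% with squares of 15 and 62 bins. The shares of all bins that meet these settings were not counted.

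The median MN difference was 0.12 and 0.00096 with score thresholds of -0.3 and -0.8, 0.0019 within classes of GC content, and below 0 with the local mean (-0.035, and -0.037 at the same 632 bins), the GC content of the window (-0.023) and the dip (-0.043). It was 0.018 with the lowest score taken within 30 bins and 0.022 with a square of 62 bins. The ESC median was -0.0012 and 0.0078 with squares of 15 and 62 bins. It was 0.0025 with a threshold of -0.3, 0.0059 with the local mean (0.0029 at the same bins), 0.0024 after thinning and -0.0021 by the dip. Members lower in PATZ1 KO MNs were 111 of 666 (16.7%, against 24.2% of all bins) and 22 of 502 (4.38%, against 13.4%) with squares of 15 and 62 bins, 25 of 374 (6.68%) with a difference of 0.5, 22 of 471 with the local mean (33 at the same 632 bins), 32 of 520 (6.15%) after thinning, 19 with window GC content, 13 by the dip, and 158 and 11 with changes of 0.1 and 0.3 (25% and 1.74%, against 34.3% and 7.06% of all bins). Members higher were 60 of 502 (11.95%, against 15.7% of all bins) with a square of 62 bins, 248 of 649 (38.2%) and 83 of 550 (15.1%) with thresholds of -0.3 and -0.8, 85 of 374 (22.7%) with a difference of 0.5, 10 of 471 with the local mean (9 at the same bins), 38 and 8 with GC content of bin and window, 6 by the dip, and 259 and 87 with changes of 0.1 and 0.3 (41% and 13.8%, against 35.7% and 12.1% of all bins). For the score thresholds, the difference of 0.5 and thinning, the shares of all bins are those of the main score, 18.5% lower and 23.3% higher. The score of the MN libraries is the same there. With the local mean, 1.63% of all bins were lower and 1.80% higher. These shares were 5.57% and 6.46% with GC content of the bin, 0.73% and 1.36% with that of the window, and 0.737% and 0.602% by the dip. Gene starts were at 17.4% with the local mean, against 6.19% of all bins. Within 1 bin they were at 30.1%, against 16.4% of all bins and 45.8% of shared boundaries. CTCF matches were at 50.1% and 62% with thresholds of -0.3 and -0.8 and 68.2% with the local mean, against 53.0% of all bins. With the narrower letters they were at 19.3%, against 16.5% of all bins. The causes were not tested, except that changing a threshold, a window or the letters changes what is counted. The window GC content, the dip, the local mean at the same bins, and the counts of 387 and 247 were chosen after seeing the data. Differences within the counting intervals of single bins could not be shown at this depth.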

Other observations

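One member stood apart in both cell states. At chr11:87584001-87592000, in Sept4, the score in ESCs was -1.03 (WT) and -1.67 (PATZ1 KO) and in MNs -1.37 (WT) and -1.93 (PATZ1 KO), the lowest PATZ1 KO minus WT difference of any member in each cell state (-0.63 in ESCs, counting interval -0.78 to -0.49, and -0.56 in MNs, -0.75 to -0.37). It was chosen after its values were seen and missed the named set because the PATZ1 KO MN library had 355 crossing contacts. Contacts within its flanks were also fewer in PATZ1 KO, at 42.6 against 64.5 per 1000000 in ESCs and 42.2 against 73.4 in MNs. Crossing contacts made up a similar share in both genotypes, 9.31% (WT) and 8.78% (PATZ1 KO) in ESCs and 6.75% and 6.89% in MNs. The dip was deeper in PATZ1 KO, at -0.42 against -0.24 in ESCs and at -1.50 against -1.33 in MNs. Without chromosome 11 the median MN difference over members stayed 0.038.

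The 28 members near an olfactory or vomeronasal receptor gene had a median GC content of 37.2% and a median MN difference of 0.27. The difference was above 0 at 26 of them (92.9%) and at least 0.2 at 23 (82.1%). In all bins weighted to the GC content of these members, the shares were 86.2% and 56.4%. This weighting used the GC content of the single bin and not that of the window, which the MN difference followed more closely. The median difference of the dip was -0.0074.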
